A study of Mus musculus with 6 samples.

Results

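Accessible chromatin around 8 genes of hepatic insulin signalling (Insr, Irs1, Irs2, Pik3r1, Akt1, Akt2, Igfbp1 and Trib3) was described from the positions of intervals in the combined ATAC-seq list, where 64 of 120905 intervals overlapped the RefSeq span of a member or the 10 kb to either side of it. The genes were chosen for their role in the pathway, with earlier results of these data known. All 8 were found among 21887 protein-coding genes of the mm10 build. ATAC-seq marks open DNA with a transposase. The 6 liver libraries stem from males, wild type in genotype, of the inbred strains C57BL/6J (3 libraries) and 129S1/SvImJ (3 libraries), and every group received the high-fat diet. No age is stated, replicates are not tied to individual animals, and the protocol calls the transposed material by an abbreviation left undefined. The deposited list carried no strain, library, score or read count, so the strains could not be compared, no test across samples was possible, and the depth behind each interval is unknown.

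Insulin binds its receptor, a tyrosine kinase encoded by Insr, which phosphorylates the adaptor proteins IRS1 and IRS2. These recruit phosphoinositide 3-kinase, whose regulatory subunits include the products of Pik3r1, and the lipid it makes activates the kinases AKT1 and AKT2. In hepatocytes AKT excludes FOXO transcription factors from the nucleus and so lowers transcription of Igfbp1, which encodes a secreted binder of insulin-like growth factors, and of Irs2, while Trib3 encodes a pseudokinase that binds AKT.

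The labelled tissue was checked at marker genes of liver and other cells. All 8 hepatocyte markers had an interval within 10 kb and all 8 had an interval at a gene end, against 83.9% and 61.5% of all protein-coding genes. Of 6 macrophage markers 4 had an interval within 10 kb and 2 at an end, with Adgre1 and C1qa at 0. Of 4 lymphocyte markers 2 had an interval within 10 kb and 1 at an end, with Cd3d and Cd8a at 0, and of 4 skeletal muscle markers 2 had an interval within 10 kb and 2 at an end. All 4 endothelial and all 4 stellate cell markers had an interval within 10 kb, and 1 and 3 of them at an end. The median count was 7 (range 3 to 17) for endothelial and 3.5 (2 to 9) for hepatocyte markers. It was 2 for macrophage, 2 for stellate cell, 1.5 for skeletal muscle and 0.5 for lymphocyte markers. These counts were not matched for gene length. In bulk liver the cell type in which an interval was open cannot be told apart.

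Start sites were examined first, because the promoter sequence of 7 of the 8 genes was listed by RefSeq (build GRCm38.p6, the mm10 assembly) as 300 bases, from 250 before to 50 after each annotated start. Insr had no entry. An interval overlapped a listed start window in 5 of these 7 genes, Irs1, Pik3r1, Akt2, Igfbp1 and Trib3, and in neither Irs2 nor Akt1. Among all 17492 protein-coding genes with an entry, 52.1% had an interval on a start window. With so few genes, 5 of 7 (71.4%) is a description and not a departure from that share. The start windows of 4 members are shown because they hold the contrast, with the bases inside an interval in capitals and the rest in lower case, each read 5′ to 3′ on the strand of the gene. The start site is the base after the first 250.

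Igfbp1, chr11:7197537-7197836, plus strand: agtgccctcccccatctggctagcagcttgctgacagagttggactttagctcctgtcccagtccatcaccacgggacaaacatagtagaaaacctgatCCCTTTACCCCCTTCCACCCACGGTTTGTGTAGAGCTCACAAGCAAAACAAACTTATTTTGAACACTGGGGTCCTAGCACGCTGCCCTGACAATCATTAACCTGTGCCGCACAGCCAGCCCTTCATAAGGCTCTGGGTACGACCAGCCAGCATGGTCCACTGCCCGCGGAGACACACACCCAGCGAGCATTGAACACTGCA
Trib3, chr2:152344011-152344310, minus strand: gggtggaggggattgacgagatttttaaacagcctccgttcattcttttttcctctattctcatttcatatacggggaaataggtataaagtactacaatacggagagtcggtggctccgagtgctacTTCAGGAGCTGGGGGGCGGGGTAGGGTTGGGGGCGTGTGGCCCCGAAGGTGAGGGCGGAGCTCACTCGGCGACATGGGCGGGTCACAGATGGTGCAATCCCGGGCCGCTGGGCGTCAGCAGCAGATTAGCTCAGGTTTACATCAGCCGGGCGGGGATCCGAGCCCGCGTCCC
Irs1, chr1:82291390-82291689, minus strand: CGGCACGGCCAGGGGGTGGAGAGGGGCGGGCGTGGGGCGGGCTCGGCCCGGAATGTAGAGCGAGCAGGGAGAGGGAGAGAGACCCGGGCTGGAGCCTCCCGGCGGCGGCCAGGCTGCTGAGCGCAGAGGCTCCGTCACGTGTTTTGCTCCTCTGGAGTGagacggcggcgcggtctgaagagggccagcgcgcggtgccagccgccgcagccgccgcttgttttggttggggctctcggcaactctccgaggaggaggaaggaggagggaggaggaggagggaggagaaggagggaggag
Irs2, chr8:11008880-11009179, minus strand: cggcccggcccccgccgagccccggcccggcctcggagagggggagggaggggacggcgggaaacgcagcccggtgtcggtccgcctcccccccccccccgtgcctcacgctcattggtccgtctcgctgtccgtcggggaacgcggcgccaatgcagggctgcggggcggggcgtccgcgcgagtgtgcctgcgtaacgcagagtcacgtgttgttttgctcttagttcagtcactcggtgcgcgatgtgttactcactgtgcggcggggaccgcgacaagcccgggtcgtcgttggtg

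The interval at Igfbp1 (chr11:7197636-7197880, 245 bp) covered positions 100 to 300 of the window, and its centre lay 29 bp upstream of the start. At Trib3 the interval (chr2:152343982-152344182, 201 bp) covered positions 129 to 300 and was centred 22 bp upstream of the start. At Irs1 the interval (chr1:82291531-82291798, 268 bp) covered positions 1 to 159, so that it ended before the start site. Thus the sequence around the start was inside an interval at Igfbp1 and Trib3 and outside it at Irs1, where the centre lay 225 bp upstream. No base of the Irs2 window was covered, and the nearest interval (chr8:11009583-11009887, 305 bp) was centred 806 bp upstream.

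The other 3 genes with an entry had an interval on some of their start windows or on none. In Pik3r1 the 204 bp interval at chr13:101768258-101768461 lay wholly within the window of the upstream start, covering 204 of the 300 bases. The second listed start of Pik3r1, at position 101692630, lies far inside the gene and had no interval on its window. Its nearest intervals were centred 2070 and 2313 bp away. Akt2 has 4 listed starts, of which 2 had an interval: the first, where chr7:27591466-27591672 (207 bp) was centred 17 bp inside the gene, and that at position 27605797, where chr7:27605649-27605860 (212 bp) was centred 43 bp away. Neither of the 2 listed starts of Akt1 was covered. The nearest interval to them, chr12:112675357-112675608 (252 bp), was centred 598 bp upstream of the first, within the span of the lncRNA gene Gm30150, which overlaps the start of Akt1. Irs2 shares this arrangement, since its upstream interval lies within the span of the lncRNA gene 9530052E02Rik. Neither interval fell on a listed start window of those lncRNA genes, the distances to the nearest such start being 1006 and 1885 bp.

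**Figure D1:**
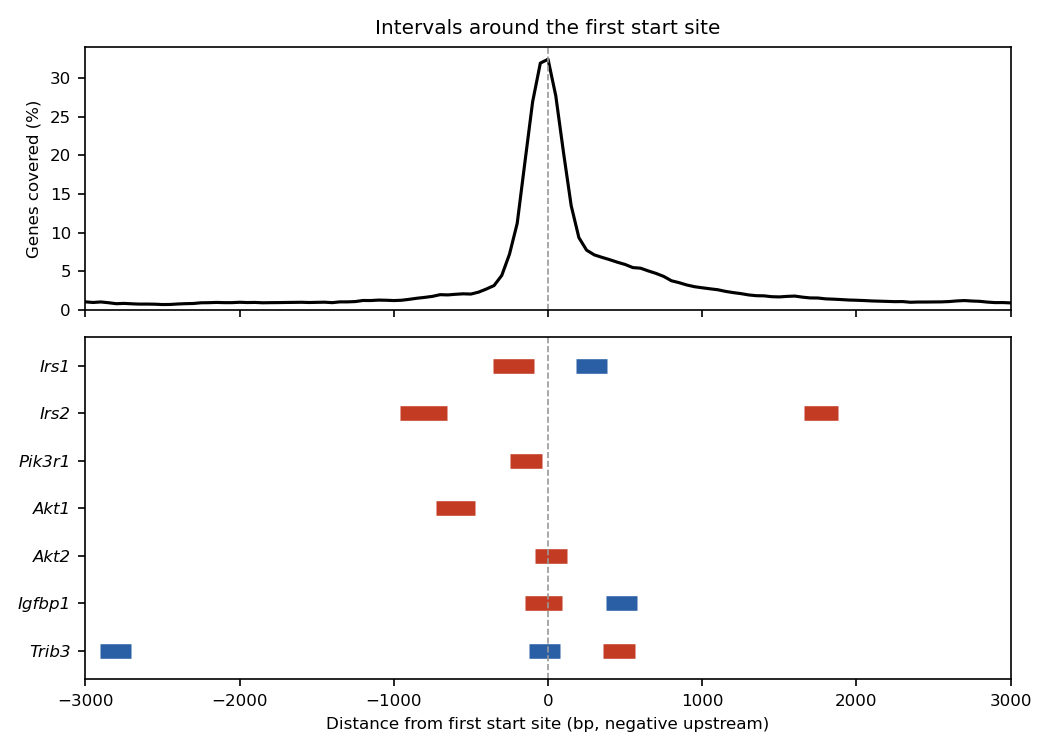
Top, the percentage of protein-coding genes with a listed start whose position at each distance (bp, negative upstream) from the first start was inside an interval, which was highest at the start itself (32.4%) and 1.23% at 1000 bp upstream. Bottom, the intervals of the 7 members with a listed start (red, wider than 201 bp, and blue, 201 bp). Those of Irs2 lie to either side of the first start and that of Akt1 upstream of it, with neither start window covered. In Irs1 and Pik3r1 an interval overlaps the start window but not the start base.

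Base composition differed among the start windows of Irs2 and Akt1, the 2 genes without an interval on any such window. The Irs2 window was 72.0% G and C with 41 CpG dinucleotides, more GC-rich than 90.9% of all 21263 start windows of protein-coding genes. Of the 3446 windows within 5 percentage points of that value, 75.8% had an interval. The first window of Akt1 was 52.3% G and C, a composition at which 40.2% of windows had an interval, and its second was 79.7%, at which 71.6% did. The Irs1 window at 71.3% and the first Pik3r1 window at 75.7% were as GC-rich as that of Irs2 and each had an interval. Among all windows the median GC content was 62.0% with an interval and 50.3% without, and the part of composition in the members' pattern was not tested.

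Motifs were searched as exact letters on both strands of these windows. The FOXO insulin response element CAAAACA, or its reverse complement, was present in 3 of the 12 member windows, those of Igfbp1, Irs1 and Irs2, and in 5.26% of all start windows. The E-box CACGTG was present in 2 of the 12, those of Irs1 and Irs2, and in 7.84% of all windows, and both motifs together stood in 80 of 21263 windows (0.376%), these 2 among them. The stretches that hold them are shown with motif letters in capitals, on the strand of the gene.

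Igfbp1, chr11:7197671-7197703: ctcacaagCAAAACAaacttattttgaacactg
Irs1, chr1:82291536-82291562: ggctccgtCACGTGTTTTGctcctctg
Irs2, chr8:11008952-11008981: cgcagagtCACGTGtTGTTTTGctcttagt

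The Igfbp1 element (positions 143 to 149 of the window) lay inside the interval. In Irs1 the E-box (positions 136 to 141) and the FOXO letters (positions 140 to 146) overlap by their ends, and both lay inside the interval. A second match to the FOXO letters in Irs1, at positions 219 to 225, fell in the 270 bp between its 2 start-proximal intervals. In Irs2 the E-box (positions 207 to 212) and the FOXO letters (positions 214 to 220) stand next to each other, and neither was inside an interval. A match is a description of letters and not a bound site. The forkhead letters GTAAACA occurred in 1 of the 12, the first Akt1 window, outside any interval, and in 3.01% of all windows. The GC box GGGCGG occurred in 6 of the 12 member windows, near its share of 46.2% of all windows. The ATF4-C/EBP element TGATGCAA, the cyclic AMP response element TGACGTCA and the nuclear receptor half-site AAGGTCA were not present in these letters in any of the 12 member windows, and were held by 0.865%, 2.23% and 4.08% of all windows.

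Each of the 8 members had an interval in its span or within 10 kb, as did 83.9% of all protein-coding genes. Counts per member ran from 3 in Irs2 to 15 in Insr, with a median of 6.5 against 3 for all protein-coding genes. Because long genes hold more intervals, each member was set beside the 400 protein-coding genes nearest to it in span length. By this measure 6 of 8 members had more intervals than the median of their length-matched genes, 1 (Irs2) had as many and 1 (Akt2) had fewer. Over all protein-coding genes 42.0% were above the corresponding median and 38.5% below it. Genes are not replicates, so these are positions within a distribution and not tests.

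**Figure D2:**
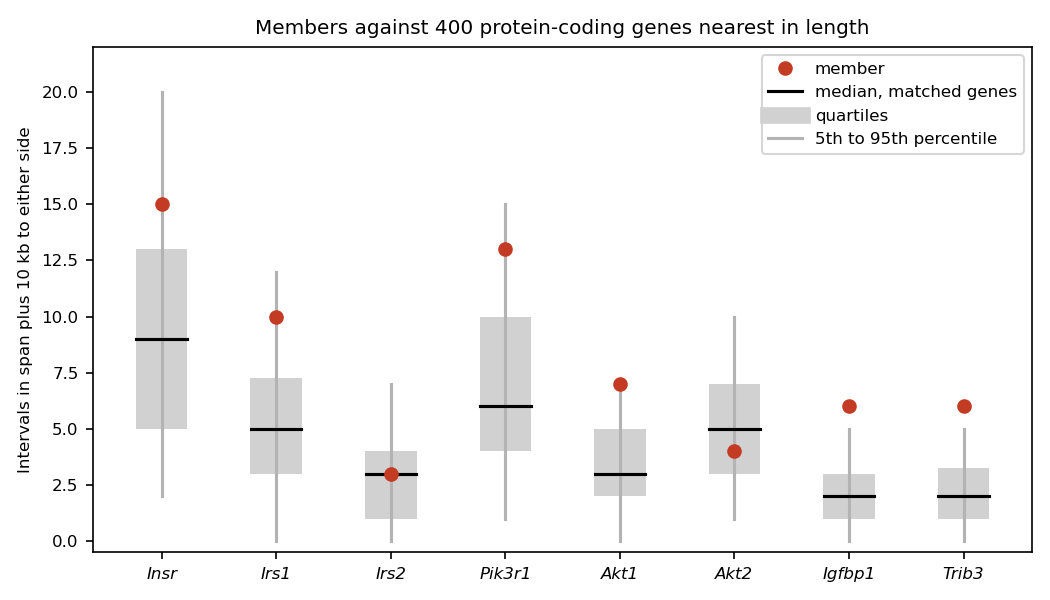
Number of intervals in the span plus 10 kb to either side for each member (red points) beside its 400 length-matched protein-coding genes (line, median; box, quartiles; whisker, 5th to 95th percentile). Igfbp1 and Trib3, each with 6, lie above the 95th percentile of 5, Akt1 lies on its 95th percentile of 7, and Irs2 and Akt2 lie within the quartiles.

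An interval overlapped the 1000 bp around a gene end in all 8 members, against 61.5% of all protein-coding genes. Akt1 and Trib3 had an interval at both ends, which was so for 9.68% of protein-coding genes. In Insr, Irs1, Irs2 and Pik3r1 the interval stood at the upper-coordinate end and in Akt2 and Igfbp1 at the lower one. In the 5 of these 6 genes with a listed start, that was the end of the gene with the start.

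The receptor gene Insr (chr8:3150922-3279649, 128728 bp) had 15 intervals, against a median of 9 in length-matched genes, of which 79.2% had fewer. Of these, 13 overlapped the span and 2 lay beyond its upper-coordinate end. All 13 were centred in the upper-coordinate part of the gene, between 47 and 63936 bp from that end, and none in the lower part. The interval nearest to the end, chr8:3279498-3279706 (209 bp), was centred 47 bp inside it, and the next, of 201 bp, 827 bp outside it. The remaining flanking interval, also of 201 bp, was centred 9117 bp outside. Between 15307 and 36235 bp inside the gene stood 6 intervals of 201 to 235 bp, and between 46807 and 63936 bp another 6 of 201 to 231 bp. From chr8:3140922 to 3215611 there was no interval, a stretch of 74690 bp that includes the lower flank. The median longest free stretch in length-matched genes was 51174 bp, and 23.2% of them had a stretch at least as long as that of Insr.

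Both IRS adaptor genes were described next, since they act at the same step and differed in their intervals. Irs1 (chr1:82233105-82291439, 58335 bp) had 10 intervals against a matched median of 5, with 88.0% of matched genes having fewer. Irs2 (chr8:10984681-11008929, 24249 bp) had 3 against a matched median of 3, with 47.8% having fewer and 37.2% more. In Irs1, 9 of the 10 overlapped the span, and the nearest to the start inside it, of 201 bp, was centred 279 bp from it. Further into Irs1 stood a pair centred 6845 bp (252 bp wide) and 8021 bp (255 bp wide) from the start, then 3 intervals of 220 to 232 bp between 27497 and 32905 bp. The last 3 were centred 43493, 52968 and 56628 bp from the start and were 270, 337 and 205 bp wide, so that the last stood 1706 bp before the far end. In Irs2 the only interval in the span, chr8:11007049-11007271 (223 bp), was centred 1769 bp inside the start. The third Irs2 interval, of 260 bp, was centred 6006 bp beyond the far end, and the 28243 bp between these 2 held none. The rank of Irs2 depended on the flank, with 27.8% of matched genes having fewer in the span alone, where the value for Irs1 was 93.0%, and 89.5% with flanks of 50 kb, where it was 89.0%. With the widest flanks the genes thus ranked alike, and no difference between them has a replicate check.

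Pik3r1 (chr13:101680761-101768217, 87457 bp), the gene of the p85α, p55α and p50α regulatory subunits, had 13 intervals against a matched median of 6, and 88.2% of matched genes had fewer. Of these, 12 lay in the span and were spread along its length, 7 centred in the part of the gene nearer to the start and 5 in the part farther from it. The first 4 inside the gene were centred 5215, 8687, 14353 and 21836 bp from the upstream start, with widths of 201, 205, 299 and 230 bp. Next came intervals at 29197 bp (219 bp), at 39204 and 39686 bp (210 and 201 bp, with 277 bp between them), and at 48498 bp (222 bp). The last 4 were centred 56110, 70050, 73517 and 77900 bp from the upstream start and were 201, 226, 201 and 206 bp wide. The longest stretch without an interval was 19454 bp, at the far end and its flank, whereas length-matched genes had a median of 41497 bp and 8.25% had a shorter one.

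**Figure D3:**
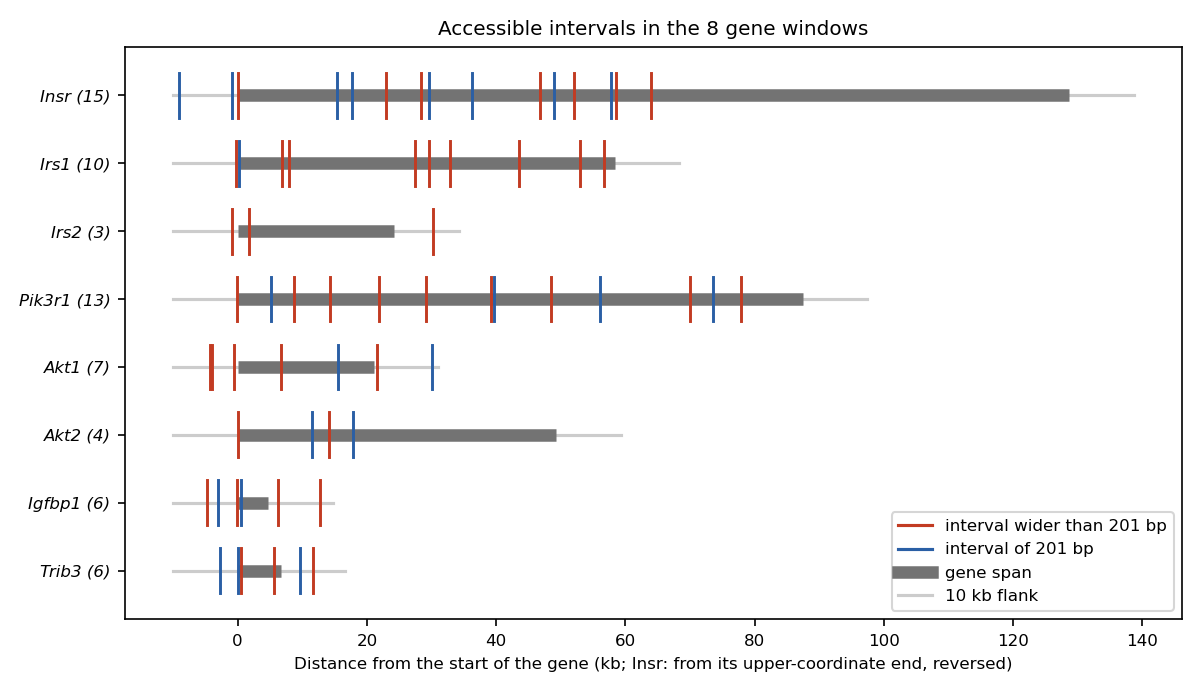
Map of the 64 intervals (vertical ticks; red, wider than 201 bp; blue, 201 bp) on the 8 gene spans (dark bars) with 10 kb flanks (light lines), by distance in kb from the first start and, for Insr, from its upper-coordinate end. The intervals of Irs1 and Pik3r1 are spread over the span, those of Insr and Akt2 stand on 1 side of it, and most of those of Akt1 and Igfbp1 lie outside it.

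The kinase genes Akt1 and Akt2 ranked differently among genes of their length with flanks of 10 kb, but not in the span alone, where 51.2% and 54.5% of matched genes had fewer. Akt1 (chr12:112653821-112674884, 21064 bp) had 7 intervals against a matched median of 3, and 93.8% of matched genes had fewer. Akt2 (chr7:27591552-27640826, 49275 bp), the isoform most tied to insulin action in liver, had 4 against a matched median of 5, with 34.5% having fewer and 50.5% more. Only 2 of the 7 Akt1 intervals overlapped its span. The interval chr12:112668019-112668285 (267 bp) was centred 6732 bp from the first start, and chr12:112659216-112659416 (201 bp) covered the microRNA gene Mir6939 inside Akt1, 15568 bp from that start. A 204 bp interval was centred 480 bp beyond the far end. The remaining 4 overlapped other genes: 2 in Zbtb42 (226 and 223 bp wide, centred 3921 and 4323 bp upstream of Akt1), 1 of 252 bp in Gm30150, and 1 of 201 bp on the start windows of both Siva1 and Gm30101. The nearer Zbtb42 interval lay on the start window of that gene too. When intervals that overlap another gene and not the gene itself were left out of all genes, Akt1 had 3 against a matched median of 2 and 59.8% of matched genes had fewer. In Akt2 all 4 intervals lay in the part of the gene nearer to the start, the other 2 being centred 11465 and 17838 bp from the first start, and the 41336 bp from there to the end of the far flank held none.

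The output gene Igfbp1 (chr11:7197787-7202546, 4760 bp) had 6 intervals against a matched median of 2. None of its 400 length-matched genes had more, 398 had fewer and 2 had as many. Its start-proximal interval was followed by an interval of 201 bp centred 474 bp inside the gene, 280 bp away from it. Upstream stood intervals centred 3091 bp (201 bp wide) and 4805 bp (234 bp wide) from the start. Beyond the far end stood 1 centred 1484 bp away (214 bp) in no gene and 1 centred 7973 bp away (219 bp) in Igfbp3, the neighbouring gene of another binding protein, so that 4 of the 6 lay outside the span. Counted in the span alone, Igfbp1 had 2 against a matched median of 1, and 84.5% of matched genes had fewer. Without intervals lying only in another gene it had 5 against 1, and 99.0% had fewer.

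Trib3 (chr2:152337425-152344060, 6636 bp), the gene of the AKT-binding pseudokinase, also had 6 against a matched median of 2, and 96.5% of matched genes had fewer. Within the span an interval of 213 bp was centred 460 bp from the start, 275 bp apart from the one on the start, and another of 211 bp 1047 bp before the far end. A 201 bp interval lay 2805 bp upstream, in the lncRNA gene Gm14164. Beyond the far end a 201 bp interval was centred 2984 bp away in no gene, and a 216 bp interval 4967 bp away fell on the start window of Rbck1. Counted in the span alone Trib3 had 3 against 1 with 97.2% of matched genes having fewer. Without intervals in other genes only it had 4 against 1 with 92.0% having fewer. With intervals of 201 bp left out of all genes, Trib3 had 3 against 1.5 with 75.5% having fewer.

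Over the 8 windows 46 intervals overlapped a member span and 18 lay in the flanks. Of those 18, 8 overlapped another gene and 10 no gene. In the 7 members with a known strand, 9 of the flanking intervals lay upstream and 7 downstream. In the same 7 genes 19 of 31 centres inside the span (61.3%) lay in the part nearer to the start, close to the 58.0% over all protein-coding genes with a listed strand.

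Width was the only other property of an interval in the list. Of the 64 intervals 22 (34.4%, exact Clopper-Pearson 95% interval 22.9 to 47.3, counting error only) had the narrowest width of 201 bp. The share was 40.4% among 76264 intervals in the windows of all protein-coding genes, which lies inside that interval, so no difference was detectable at this number. Median widths were 211 bp in the member windows, 206 bp in the windows of all protein-coding genes and 203 bp in the whole list. Single members held 3 to 15 intervals each, and differences in width among them were not tested. The exact 95% limits of the share at 201 bp overlapped between Irs1 (0.253 to 44.5%) and Insr (26.6 to 78.7%). In Irs1, 5 of 10 intervals were wider than 250 bp and 1 was 201 bp wide, and in Irs2 widths were 223, 260 and 305 bp. In Insr none of 15 was wider than 250 bp and 8 (53.3%) were 201 bp wide. Intervals wider than 250 bp made up 9.06% of the list, and the widest of the 64 was the 337 bp interval in Irs1 at chr1:82238303-82238639.

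**Figure D4:**
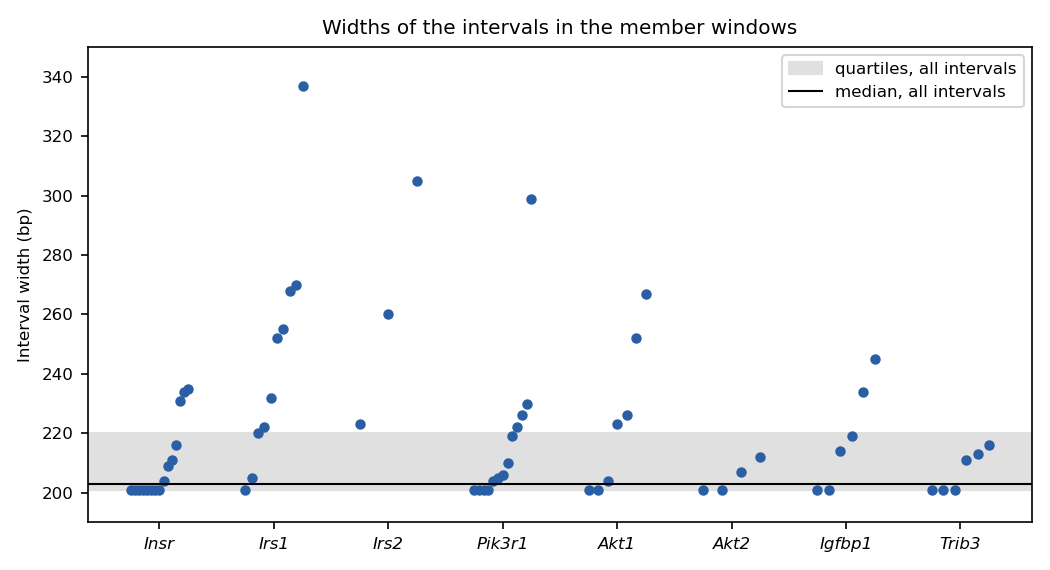
Width (bp) of each interval in the member windows (points) against the quartiles (grey band, 201 to 220 bp) and median (line, 203 bp) of all 120905 intervals; the axis starts above 0. Points of Irs1 and Irs2 lie mostly above the band, and those of Insr, Akt2 and Trib3 mostly within it.

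Other genes of insulin signalling were taken from a list of 40. All 40 had at least 1 interval in their window, with a median of 5. Of these, 21 (52.5%) were above the median of their length-matched genes, 8 equal to it and 11 below it, against the 42.0% of all protein-coding genes above. An interval stood at a gene end in 37 of 40 (92.5%) and on a listed start window in 28 of 35 (80.0%), against 61.5% and 52.1% of all protein-coding genes. The most intervals were in Prkce, a protein kinase C gene of 490135 bp, with 65 (98.2% of matched genes had fewer), Phlpp1, an AKT phosphatase gene, with 31 (94.8%), and Grb14, an inhibitor of the insulin receptor, with 18 (93.2%), as many as Gsk3b, the glycogen synthase kinase gene (80.8%). The 3 ranking highest for their length were Prkce, Phlpp1 and Shc1, an adaptor gene with 6 intervals (94.2% of matched genes had fewer). The lowest rank for length, chosen after its value was seen, was that of Rptor, a subunit gene of the mTOR complex, with 3 intervals in a gene of 296687 bp (4.75% had fewer). Foxo1, the FOXO gene most tied to hepatic glucose output, had 9 (70.2% of matched genes had fewer), and its target Pck1, a gluconeogenic enzyme gene, had 4, all outside its span.

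Paralogues of the members were compared as well, and 10 of 14 had more intervals than their matched median, 3 as many and 1 fewer. Over all protein-coding genes 42.0% were above and 38.5% below. An interval stood at a gene end in 12 of the 14 (85.7%), against 61.5% of all protein-coding genes. On a listed start window an interval stood in 6 of 12 (50.0%), near the 52.1% of all protein-coding genes. Igf1r, the gene of the related growth factor receptor, had 22 (72.8% of matched genes had fewer), and Insrr 5 (75.5%). In the span alone the values were 70.5% for Igf1r and 52.0% for Insrr. Of the adaptor genes, Irs3 had 2 (46.5%) and Irs4 had 3 (42.8%), beside 47.8% for Irs2 and 88.0% for Irs1. In the span alone the values were 59.5% for Irs3 and 85.5% for Irs4, beside 27.8% for Irs2 and 93.0% for Irs1, so that the place of Irs4 depended on the flank. Of the regulatory subunit genes, Pik3r2 had 3 (51.7%) and Pik3r3 had 2 (9.00%), below Pik3r1 (88.2%). Counted in the span alone, Pik3r2 stood at 75.5%, Pik3r3 at 7.25% and Pik3r1 at 91.8%. Among binding protein genes, Igfbp5 had 6 (90.5%), Igfbp7 9 (84.8%), Igfbp3 5 (83.2%), Igfbp2 6 (80.8%), Igfbp6 4 (79.5%) and Igfbp4 3 (40.0%), all below Igfbp1 (99.5%) with flanks of 10 kb. In the span alone the order differed, with Igfbp5 at 96.2% and Igfbp1 at 84.5%. Igfbp1 and Igfbp3 are neighbours, and most intervals of Igfbp3, among them that on the Igfbp1 start, are also counted for Igfbp1. Their ranks are therefore not separate values. The windows of Igfbp2 and Igfbp5 overlap as well. Trib2 had 6 (84.2%) and Trib1 4 (77.2%), both below Trib3 (96.5%), whereas in the span alone, which holds all 6 Trib2 intervals and 3 of the 6 of Trib3, Trib2 stood at 97.8% and Trib3 at 97.2%. These ranks are from 1 list and have no replicate spread.

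**Figure D5:**
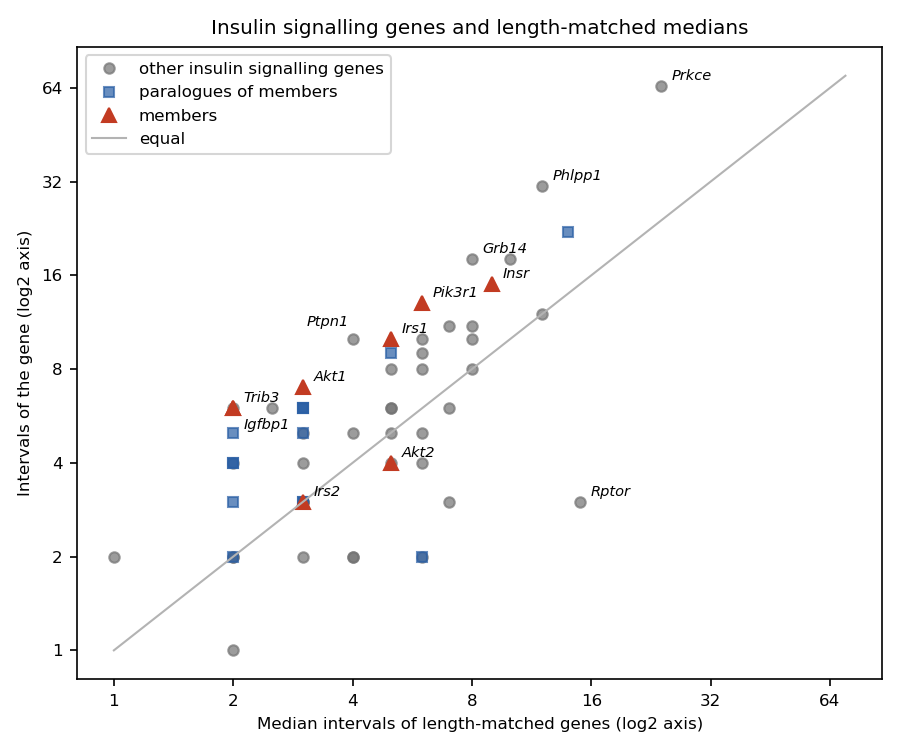
Intervals of each gene against the median of its length-matched genes (both log2 axes) for the 8 members (red triangles), 40 other insulin signalling genes (grey circles) and 14 paralogues (blue squares), with the line of equality. Of the members, 6 lie above the line, Irs2 on it and Akt2 below it.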

How the data were processed

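Positions were taken from a single list of intervals deposited by the authors, with 3 columns (chromosome, start and end) and no measured value. Per the submitters' processing notes, fastp, a read trimmer, Bowtie2, an aligner, HOMER, a suite with a peak caller, and the build mm10 were used. Not given in the sources used here are versions, the peak threshold, filters, shifts of read ends and how the 6 libraries were merged, and the threshold decides which weak sites are listed. Starts were converted to 1-based positions.

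Gene spans came from RefSeq (GRCm38.p6), and starts, strands and promoter sequences from its promoter table. An interval counted for a gene when it overlapped the span plus 10 kb by at least 1 bp. A gene end was its outermost base with 1000 bp to either side. Comparison genes were the 200 protein-coding genes of equal or shorter and the 200 of longer span nearest in length, without the members. Ranks are shares of these 400 genes. Counting was tested on simulated positions. Python 3.11.15, pandas 2.3.3 and SciPy 1.17.1 were used. The members and lists were chosen with earlier results of these data known. Text names every member, 14 paralogues (1 more gene of that list is not reported here) and of the pathway list the 3 genes with the most intervals and the 3 highest for their length. Foxo1, Pck1, Rptor and Gsk3b were added after their values were seen. Alternatives changed flanks, end windows, overlap, widths, joining and the comparison genes.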

Additional observations from a re-analysis of the deposited data

How the results depend on the processing

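No paired analysis was possible because the list carries no library or strain, and for the same reason no replicate could be left out. The number of members above their length-matched median stayed at 6 or 7 under all 11 alternatives tried, and the number with an interval at an end at 7 or 8 under 5. The total of 64 intervals became 135 with flanks of 50 kb and 42 without intervals of 201 bp, and the median of 6.5 per member became 3.5 without flanks and 17 with flanks of 50 kb, in each case by the construction of the window or list. Akt2 stood 1 below its matched median and 1 above it without flanks. With flanks of 5 or 50 kb, and with close intervals joined, Akt2 equalled its matched median. It also did so with comparison genes within 20% of its length and without intervals lying only in another gene. Irs2 was above its matched median under 2 of 11 alternatives. The share of matched genes with fewer intervals ranged from 51.2% to 99.0% for Akt1 and from 61.3% to 81.5% for Insr. It ranged from 27.8% to 89.5% for Irs2, from 84.5% to 100% for Igfbp1 and from 75.5% to 100% for Trib3. For Akt2 the range was 25.2% to 54.5%, for Irs1 86.5% to 95.8% and for Pik3r1 86.0% to 95.2%. Leaving out intervals that lie only in another gene, and all alternatives for start windows (4 or 5 of 7 genes covered), were added after the data were seen. Unknown depth limits every count, since an absent interval may be a site below the threshold.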

Other observations

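Pairs of intervals 250 to 300 bp apart stood at 4 of the members, a range set after their gaps were seen. The share of all protein-coding genes with such a pair was not counted, so the number of members has no background. The gap between neighbouring intervals was 270 bp at the start of Irs1, 275 bp at the start of Trib3, 280 bp at the start of Igfbp1 and 277 bp inside Pik3r1. In the whole list 6097 of 120884 adjacent pairs (5.04%) were less than 500 bp apart, with a median gap of 305 bp, and 13.8% of these had a gap of 250 to 300 bp. The windows held 2 further pairs under 500 bp, with gaps of 478 bp in Insr and 177 bp in Zbtb42 next to Akt1.

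The 2 length-matched genes with as many intervals as Igfbp1 were Fbxl8 and Ocstamp. Their intervals were not followed further.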
